A study of Homo sapiens with 4 samples.

Results

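The 10 genes of the COX2 and prostaglandin E2 (PGE2) pathway were followed in RNA sequencing of SUM159 cells, an established metaplastic, triple-negative breast cancer line. They were taken by symbol from the 57500 genes of the count tables. They were the cyclooxygenase genes PTGS1 (COX1) and PTGS2 (COX2), the PGE synthase genes PTGES, PTGES2 and PTGES3, the breakdown gene HPGD, and the EP receptor genes PTGER1, PTGER2, PTGER3 and PTGER4. The study set parental SUM159 cells (1 library, genotype given as parental control) against 3 NOS2KO clones (1 library each, numbered 1, 5 and 6 in the labels). The comparison asks which genes changed with the loss of NOS2. All cells grew in DMEM with 10% FBS. No drug treatment or time point was labelled. The clones were transfected with a NOS2 double nickase plasmid, selected with puromycin, and picked by their iNOS protein and their nitrite and nitrate. The parental cells were not described as a selected clone, so knockout, selection and single-clone origin cannot be told apart. Every value below comes from 1 culture per library, and the spread over clones is a spread between 3 clones.

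Cyclooxygenases turn arachidonic acid into PGH2, which PGE synthases turn into PGE2. COX1 is usually made at a steady level, while COX2 and the microsomal synthase encoded by PTGES are induced by cytokines and growth factors. PGE2 acts through EP receptors, of which EP2 and EP4 raise cAMP, and it is inactivated by the dehydrogenase encoded by HPGD. In breast cancer this pathway is known as a link between inflammation and tumor growth, and COX2 and iNOS are often studied together.

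Depth was 90467395 counts on genes for the parental cells and 122171287, 101337366 and 97362293 for the libraries labelled clones 1, 5 and 6. NOS2 (ENSG00000007171), the targeted gene, had 2, 3, 18 and 1 counts in that order, or at most 0.169 CPM. Its mRNA was near absent in the parental library too, so it did not check the labels. The 18 counts are why clone 5 is called "labelled" below, and they do not show that its label is wrong. Of 9 luminal breast markers, ESR1, PGR, EPCAM and CDH1 stayed under 1 CPM in every library. KRT8 (254 parental CPM, 416 to 806 in the clones), KRT18 (303, 326 to 467), ERBB2 (48.3, 55.6 to 106.2), FOXA1 (2.69, 4.62 to 24.1) and GATA3 (10.5, 1.61 to 5.37) were expressed. The median log2 fold change of the 8 tested was 1.02, and none met the criterion given below. Of 8 mesenchymal-like markers, 5 had a positive and 3 a negative log2 fold change. VIM was at 1655 parental CPM and 2890 to 3855 in the clones, ZEB1 at 83.7 and 39.5 to 57.8, and EGFR at 206.8 and 114.3 to 162.1, while SPARC (623.6, 1891 to 4724) alone met the criterion, as higher. Of 8 tested immune and endothelial markers, PTPRC, which encodes the leukocyte antigen CD45, alone met it, with 4.45 parental CPM and 41.7 to 105.4 in the clones. CD3E and CD68 were under 1 CPM throughout, while CD14 (12.8, 2.29 to 11.3) and PECAM1 (16.1, 7.06 to 13.9) were not. The list summed to 33.9 parental CPM and 64.5 to 125.0 in the clones. The part of these markers in the results was not tested.

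In the NOS2KO clones, the inducible genes of PGE2 synthesis, PTGS2 and PTGES, were below the parental level in all 3, at an unadjusted p under 0.05 that did not hold after adjustment. For PTGS2 it also did not hold without clone 6 or the library labelled clone 5. The other synthase genes had an unadjusted p over 0.05. PTGES had a parental level of 171.7 CPM (counts scaled to a common library size after TMM, the trimmed mean of M-values) and 32.1 ± 4.30 over the NOS2KO clones (SD, n = 3). For PTGS2 these were 15.9 CPM and 3.14 ± 2.53. HPGD went the other way in the libraries labelled clone 5 and clone 6, and PTGS1 lay above the parental level in some clones and below it in clone 1. Of the 4 EP receptor genes, PTGER4 was at 8.84 to 16.1 CPM in each library, and the other 3 had 11 counts or fewer in each library.

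**Figure D1:**
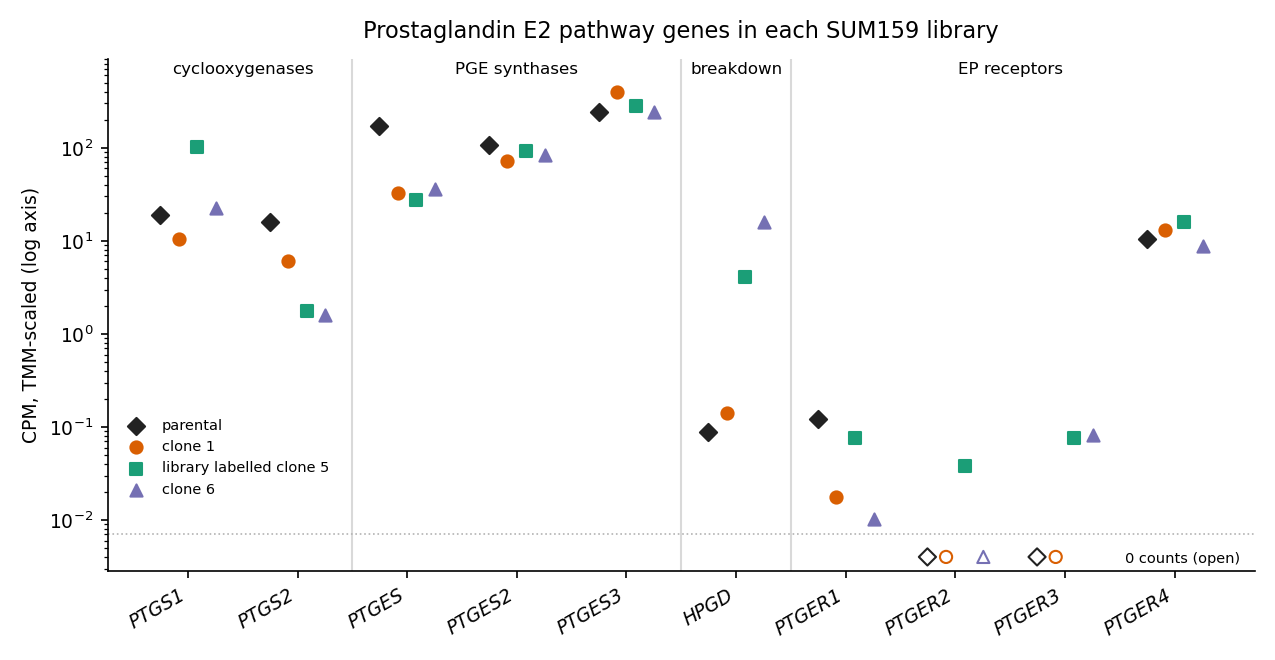
TMM-scaled CPM (log axis) of each gene, grouped by role, with 1 point per library: parental (diamond), clone 1 (circle), the library labelled clone 5 (square) and clone 6 (triangle). Open symbols under the dotted line are libraries with 0 counts. The parental point is above all clones for PTGS2, PTGES, PTGES2 and PTGER1, and HPGD spans 0.0885 to 16.1 CPM.

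Among 22511 genes that passed the expression filter, 8 of the 10 pathway genes were tested, and PTGER2 and PTGER3 were too low. The 3 clones were set against the parental cells by the quasi-likelihood test of edgeR. After Benjamini-Hochberg adjustment, 0 of the 8 passed a threshold of 0.05, against 1 (0.00444%) of all tested genes. At an unadjusted p under 0.05, PTGES and PTGS2 passed, against 11.5% of all tested genes. The criterion (unadjusted p below 0.05, log2 fold change beyond 1 to either side) took its cutoffs from the study's volcano plot. The study named a Wald test for that plot, while the criterion here used edgeR's test. Both genes met the criterion as lower genes, which 5.34% of all tested genes did. No pathway gene met the criterion as a higher gene, against 4.24%. The same 2 genes were lower by over 1 on the log2 scale in every clone, which 6.29% of all tested genes were, and none was higher by as much in every clone, against 6.56%. DESeq2's Wald test gave 2 pathway genes an adjusted p under 0.05, PTGES as lower and HPGD as higher, against 4.86% of all tested genes. By its unadjusted p, 3 pathway genes met the cutoffs of the criterion. These were PTGES and PTGS2 as lower and HPGD as higher (log2 fold change 6.27 in DESeq2), so the call of HPGD depended on the test. The median log2 fold change was -0.03 over the 8 genes and 0.10 over all tested genes. Upper quartile scaling moved this last median to 0.20, and the directions of the 8 genes did not change with the scaling. The parental cells had 1 library, so the fit took its spread from the clones, and an exact permutation test in this design reaches no p below 0.25.

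The sequences before the start sites of the genes whose levels moved most, with PTGS1 for contrast, are shown because COX2 and PTGES are classed as inducible genes. They are the 250 bases before the RefSeq start (GRCh38.p14), printed along the gene's strand: chr1:186680424-186680673 (minus strand) for PTGS2, chr9:129753043-129753292 (minus) for PTGES, chr4:174522489-174522738 (minus) for HPGD and chr9:122370283-122370532 (plus) for PTGS1. Capitals mark matches, on either strand, to the TATA box (TATAAA), the core of the cAMP response element (CGTCA), a C/EBP motif (TTNCGCAA), a kappa B motif (GGGACTNCC), an AP-1 motif (TGANTCA), an EGR1 motif (GCGTGGGCG) and the GC box (GGGCGG).
PTGS2: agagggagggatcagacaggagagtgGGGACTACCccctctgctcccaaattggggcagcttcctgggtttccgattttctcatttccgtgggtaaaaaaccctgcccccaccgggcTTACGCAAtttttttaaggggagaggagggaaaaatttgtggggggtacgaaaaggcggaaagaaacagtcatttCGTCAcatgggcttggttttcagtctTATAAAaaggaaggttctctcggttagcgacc
PTGES: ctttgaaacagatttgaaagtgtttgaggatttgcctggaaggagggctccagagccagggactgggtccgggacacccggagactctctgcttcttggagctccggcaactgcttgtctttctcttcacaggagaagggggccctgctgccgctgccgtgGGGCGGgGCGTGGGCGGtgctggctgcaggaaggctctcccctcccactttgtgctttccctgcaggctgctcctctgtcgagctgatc
HPGD: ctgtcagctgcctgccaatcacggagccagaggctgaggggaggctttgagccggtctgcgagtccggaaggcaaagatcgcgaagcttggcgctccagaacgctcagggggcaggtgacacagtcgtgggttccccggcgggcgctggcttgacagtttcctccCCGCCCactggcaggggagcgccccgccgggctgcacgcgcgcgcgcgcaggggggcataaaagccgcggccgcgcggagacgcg
PTGS1: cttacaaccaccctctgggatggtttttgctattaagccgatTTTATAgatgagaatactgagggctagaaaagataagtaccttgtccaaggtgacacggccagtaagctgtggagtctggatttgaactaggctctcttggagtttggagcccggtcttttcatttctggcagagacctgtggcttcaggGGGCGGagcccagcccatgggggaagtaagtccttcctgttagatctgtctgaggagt

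The PTGS2 window held TATAAA 32 to 27 bases before the start, CGTCA 58 to 54 before it, TTACGCAA 133 to 126 before it and GGGACTACC 224 to 216 before it. Of 35116 windows of the same length, 10.7% held the TATA box, 21.2% the cAMP response element core, 0.752% the C/EBP motif and 1.73% the kappa B motif. The letters of the C/EBP and kappa B motifs were chosen with the PTGS2 sequence in view. The PTGES window held none of these 4. It had GC boxes 89 to 84 and 78 to 73 bases before the start, the second overlapping an EGR1 motif at 82 to 74, and 42.6% and 0.72% of all windows held these motifs. HPGD had 1 GC box on the opposite strand, at 85 to 80, in a window of 70.8% G and C. PTGS1 had a GC box at 58 to 53 and a TATA box on the opposite strand at 208 to 203. The AP-1 motif, held by 6.57% of all windows, was in none of the 4. PTGS1 and HPGD had 2 windows each, of which the first listed is printed. The second PTGS1 window held a GC box and no TATA box, and the second HPGD window held the cAMP response element core and no GC box. A match is a run of letters and was not tested for binding.

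PTGS2 (ENSG00000073756, GRCh38 chromosome 1 from 186671791 to 186680427, minus strand) encodes COX2, the inducible cyclooxygenase. Its counts were 1436 in parental cells and 694, 186 and 159 in the libraries labelled clones 1, 5 and 6, or 15.9, 6.05, 1.74 and 1.61 CPM. Every clone was below the parental library, and clone 1 stood between the parental level and the other clones. Relative to parental cells, clone 1 had a log2 ratio of -1.39, with an exact Clopper-Pearson 95% interval of -1.53 to -1.26 that covers counting error only. Labelled clone 5 had a ratio of -3.19 (-3.41 to -2.97) and clone 6 one of -3.30 (-3.55 to -3.06). These last clones differed by -0.11 (-0.43 to 0.20), within counting error, and labelled clone 5 differed from clone 1 by -1.79 (-2.04 to -1.56). A gap of over 1 between those 2 clones was seen in 24.0% of the genes that reached 1 CPM in any library.

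Over the 3 clones the fitted log2 fold change of PTGS2 was -2.34 (standard error 0.93, unadjusted p = 0.0420, adjusted p = 0.414 in edgeR's quasi-likelihood test). DESeq2's Wald test gave an adjusted p of 0.136. Leaving out the library labelled clone 5 or clone 6 ended the call by the criterion (unadjusted p = 0.0731 and 0.0779 in edgeR's test), with log2 fold changes of -2.04 and -2.02. Over all alternatives its adjusted p ran from 0.112 to 0.764. The long noncoding RNA PACERR starts 195 bases upstream of PTGS2 on the opposite strand and shares no exon base with it. It had 8 to 23 counts per library, and whether the counting used strand is not given in the sources used here.

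PTGS1 (ENSG00000095303, chromosome 9 from 122370530 to 122395703, plus strand) encodes COX1, the cyclooxygenase of platelets and stomach lining. Parental cells gave 1710 counts, and the libraries labelled clones 1, 5 and 6 gave 1200, 11007 and 2250, or 18.9, 10.5, 103 and 22.8 CPM. Only the library labelled clone 5 was far from the others, and the parental level lay within the range of the clones. The log2 ratios were -0.85 (-0.96 to -0.75), 2.45 (2.37 to 2.52) and 0.27 (0.18 to 0.36). The library labelled clone 5 was 9.87-fold above clone 1, a gap of over 2 on the log2 scale that 9.52% of the genes reaching 1 CPM in any library showed. The fitted log2 fold change was 1.27 (standard error 1.28, adjusted p = 0.746 in edgeR's quasi-likelihood test), and without the library labelled clone 5 it was -0.16.

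Levels of different genes were compared as TMM-scaled CPM per kilobase of exon. On this scale, COX2 and COX1 mRNA were nearly level in the parental library, at 3.02 and 3.27, a COX1 to COX2 ratio of 1.08 (1.01 to 1.16). PTGS2 made up 48.0% (exact 95% interval 46.2 to 49.8) of the cyclooxygenase mRNA of parental cells and 38.9% (36.6 to 41.1) of that of clone 1. Its share was 1.82% (1.57 to 2.10) for labelled clone 5 and 7.21% (6.16 to 8.36) for clone 6. COX1 was the more abundant of the pair in every library. Both genes together came to 6.28 in parental cells and to 2.96, 18.2 and 4.25 in the libraries labelled clones 1, 5 and 6, so the sum was not lower than the parental one in every clone.

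PTGES (ENSG00000148344, chromosome 9 from 129738331 to 129753047, minus strand) encodes microsomal PGE synthase 1, the inducible synthase that works with COX2. Parental cells had 15523 counts, against 3725, 2949 and 3574 in the libraries labelled clones 1, 5 and 6, or 171.7, 32.5, 27.7 and 36.3 CPM. The clones lay close together, and the parental library was far above all 3. The log2 ratios to the parental library were -2.40 (-2.45 to -2.35), -2.63 (-2.69 to -2.58) and -2.24 (-2.30 to -2.19). They spanned 0.39 on the log2 scale, and 31.3% of the 9657 genes with at least 10 CPM in the parental library spanned less. A ratio below -2 in every clone was seen in 1.92% of all tested genes, and PTGES was the only pathway gene that did so.

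The fitted log2 fold change of PTGES was -2.42 (standard error 0.29, unadjusted p = 0.000341, adjusted p = 0.259 in edgeR's quasi-likelihood test). By unadjusted p it ranked 24 among 22511 genes. DESeq2's Wald test gave an adjusted p of 5.56e-07, and over the edgeR alternatives the adjusted p ran from 0.112 (without clone 1) to 0.726 (without clone 6). The gene met the criterion without any 1 of the clones, with log2 fold changes of -2.51 to -2.30.

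**Figure D2:**
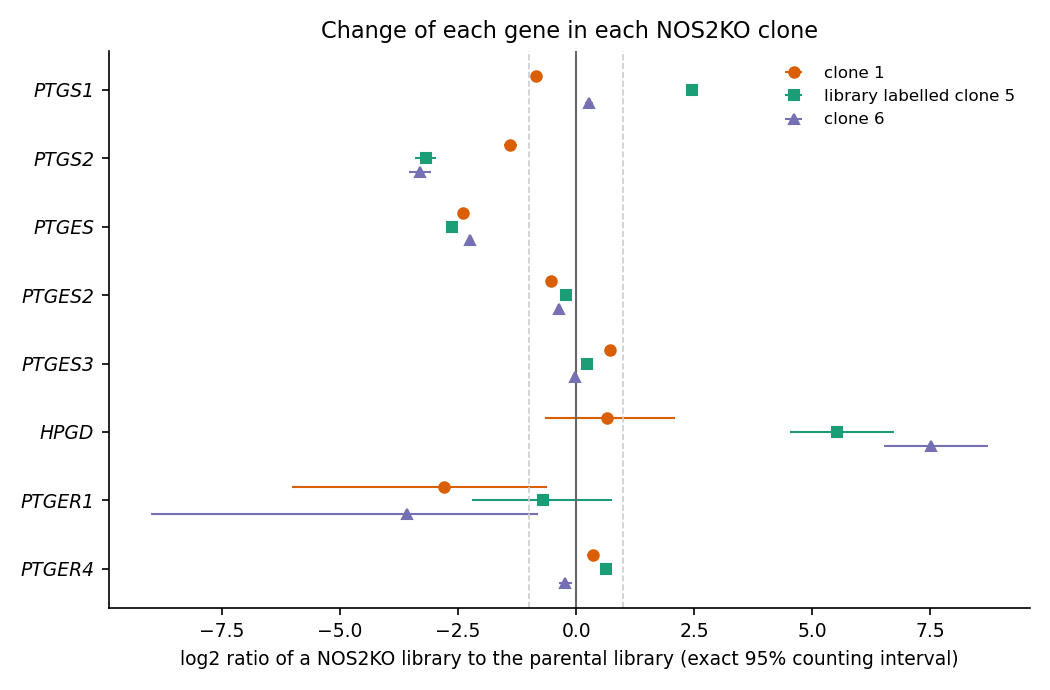
Log2 ratio of each NOS2KO library to the parental library for the 8 tested genes, with exact 95% counting intervals and dashed lines at a ratio of 1 to either side on the log2 scale. PTGS2 and PTGES are below the left line in all 3 clones, PTGS1 lies on both sides of 0, and HPGD reaches 7.51 in clone 6.

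PTGES2 (ENSG00000148334, chromosome 9 from 128120693 to 128128462, minus strand) encodes microsomal PGE synthase 2, a membrane-bound enzyme made at a steady level in most tissues. It was at 106.0 CPM in parental cells and at 73.0, 91.5 and 82.8 in the libraries labelled clones 1, 5 and 6. The clones were a little below the parental library, and the gene did not pass (log2 fold change -0.36, standard error 0.28, adjusted p = 0.638 in edgeR's quasi-likelihood test). PTGES3 (ENSG00000110958, chromosome 12 from 56663341 to 56688408, minus strand) encodes the HSP90 co-chaperone p23, also described as the cytosolic PGE synthase. In the same order it was at 242.3, 400.3, 283.1 and 240.0 CPM, with only clone 1 well above the parental library. Its log2 fold change was 0.35 (standard error 0.40, adjusted p = 0.765 in the same test). The pseudogene PTGES3P1 had 141 to 295 counts beside at least 21903 for PTGES3, and how reads common to both were counted is not given in the sources used here.

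Per kilobase, PTGES was the most abundant of the 10 genes in the parental library, at 90.6, followed by PTGES3 at 71.3 and PTGES2 at 34.9. The PTGES to PTGES3 ratio of 1.27 (1.24 to 1.30) was beyond counting error. In the clones PTGES was at 17.1, 14.6 and 19.1, below PTGES3 (117.8, 83.3 and 70.6) and PTGES2 (24.0, 30.1 and 27.3) in each. Its share of the mRNA of the 3 synthases was 46.0% in parental cells and 10.8%, 11.4% and 16.3% in the libraries labelled clones 1, 5 and 6. The ratio of PTGES to PTGES2 within a library, which does not depend on the scaling between libraries, was 2.60 (2.53 to 2.66) in the parental library. It was 0.714 (0.686 to 0.742), 0.485 (0.465 to 0.505) and 0.702 (0.674 to 0.730) in the clones, so PTGES went from above to below PTGES2 in every clone.

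**Figure D3:**
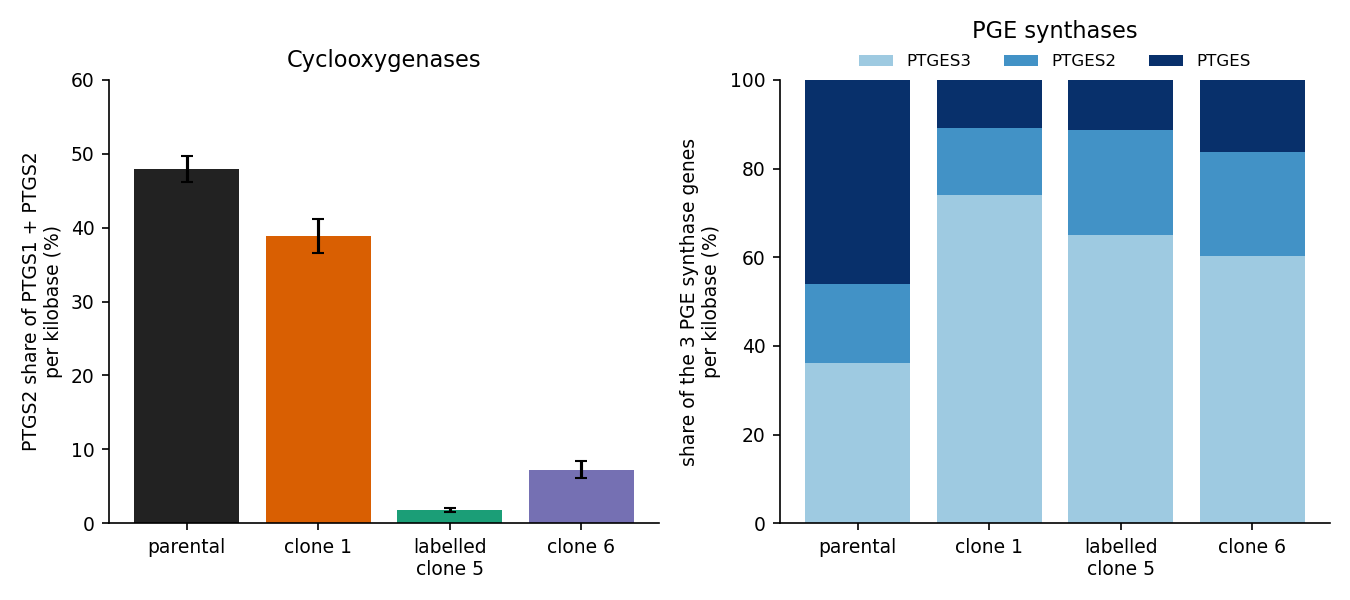
Left, PTGS2 as a percent of PTGS1 and PTGS2 counts per kilobase in each library, with exact 95% counting intervals. Right, the percent of the 3 PGE synthase genes per kilobase. PTGS2 is at 48.0% in parental cells and at 1.82% in labelled clone 5, and PTGES is at 46.0% in parental cells and between 10.8% and 16.3% in the clones.

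HPGD (ENSG00000164120, chromosome 4 from 174490177 to 174523154, minus strand) encodes 15-hydroxyprostaglandin dehydrogenase, which inactivates PGE2 and is described as a tumor suppressor in several epithelial cancers. There were 8 parental counts and 16, 433 and 1587 in the libraries labelled clones 1, 5 and 6, or 0.0885, 0.140, 4.06 and 16.1 CPM. The parental library and clone 1 were near 0 and did not differ beyond counting error, while the other libraries were far higher. Clone 1 had a log2 ratio of 0.66 (-0.65 to 2.09). The library labelled clone 5 was 45.9-fold (23.1 to 107) above the parental library and clone 6 was 182-fold (92.1 to 422) above it. Ratios over 4 on the log2 scale were seen in 1.57% of all tested genes in labelled clone 5 and 0.857% in clone 6. Clone 6 was in turn 3.96-fold above the library labelled clone 5.

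The spread of HPGD between clones (6.77 ± 8.32 CPM, SD, n = 3) was as large as its mean. Its fitted log2 fold change of 6.24 (standard error 2.30) had an adjusted p of 0.508 in edgeR's quasi-likelihood test and of 0.0142 in DESeq2's Wald test. Without clone 1 it met the criterion (unadjusted p = 0.00861, adjusted p = 0.140 in edgeR's test). The within-library ratio of PTGES to HPGD per kilobase was 5658 (2871 to 13109) in the parental library and 679 (418 to 1189) in clone 1. Labelled clone 5 had a ratio of 19.9 (17.9 to 22.0) and clone 6 one of 6.57 (6.19 to 6.97).

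PTGER4 (ENSG00000171522, chromosome 5 from 40679498 to 40693735, plus strand) encodes EP4, a receptor that raises cAMP. Its 935 parental counts compared with 1512, 1716 and 872 in the libraries labelled clones 1, 5 and 6, or 10.3, 13.2, 16.1 and 8.84 CPM. The parental level lay within the range of the clones. The log2 ratios were 0.35 (0.23 to 0.47), 0.64 (0.52 to 0.75) and -0.23 (-0.36 to -0.09), and the fitted log2 fold change was 0.30 (standard error 0.47, adjusted p = 0.827 in edgeR's quasi-likelihood test). The locus overlaps TTC33 on the opposite strand, with no exon base shared.

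PTGER1 (ENSG00000160951, chromosome 19 from 14472466 to 14475362, minus strand), which encodes the calcium-coupled receptor EP1, had 11 parental counts and 2, 8 and 1 in the libraries labelled clones 1, 5 and 6. Its fitted log2 fold change of -1.79 had a standard error of 1.46 and an adjusted p of 0.636 in edgeR's quasi-likelihood test. PTGER2 (ENSG00000125384, chromosome 14 from 52314305 to 52328606, plus strand), which encodes the cAMP-raising EP2, had 4 counts in labelled clone 5 and 0 elsewhere. PTGER3 (ENSG00000050628, chromosome 1 from 70852353 to 71047808, minus strand), which encodes the cAMP-lowering EP3, had 0 counts in the parental library and clone 1 and 8 in each of the other libraries. A count of 0 allows up to 3 counts, or 0.0246 to 0.0332 CPM at these depths before TMM scaling. After TMM scaling, the 8 counts of PTGER3 were set against 3 counts in the parental library. With the 8 counts taken as exact, this gave 2.26-fold in labelled clone 5 and 2.44-fold in clone 6. The exact 95% intervals of the log2 ratios, which also cover the error of the 8 counts, started lower, at 0.53 and 0.65. PTGER4 was thus the only EP receptor gene above 1 CPM in any library. In bulk RNA, fewer cells with a transcript and less of it per cell cannot be told apart.

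The order of the 10 genes per kilobase in the parental library was PTGES, PTGES3, PTGES2, PTGS1, PTGS2, PTGER4, PTGER1 and HPGD, with PTGER2 and PTGER3 at 0. Each neighbouring pair down to HPGD differed beyond counting error, the closest being PTGS1 over PTGS2 and PTGS2 over PTGER4 (1.15, 1.06 to 1.26). In every clone PTGES3 came before PTGES2. PTGS2 was below PTGER4 in all 3 clones, and HPGD moved above PTGS2 in the libraries labelled clone 5 (0.735 against 0.331) and clone 6 (2.91 against 0.306).

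The genes whose log2 ratios in the 3 clones lay nearest to those of PTGS2 were sought among 9656 other genes with at least 10 CPM in the parental library, by Euclidean distance over the 3 ratios. The nearest was BIRC3, an inhibitor of apoptosis, with a distance of 0.234 and 33.8 CPM in the parental library against 13.9, 3.34 and 3.11 in the clones. MOCOS (a molybdenum cofactor enzyme), PCK2 (mitochondrial phosphoenolpyruvate carboxykinase) and DUSP5 (a nuclear ERK phosphatase) followed, at distances of 0.602 to 0.661. PTGES was further away, at 1.56 and place 80, with ratios that lay closer together over the 3 clones than those of PTGS2. The 3 points share 1 parental library and were not tested.

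**Figure D4:**
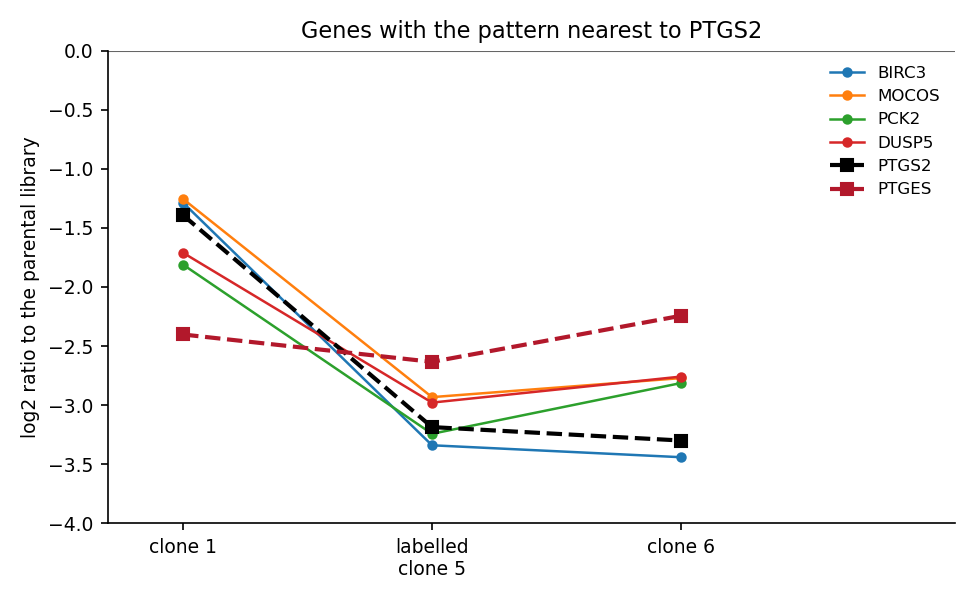
Log2 ratio to the parental library in each NOS2KO library for PTGS2 (black squares), PTGES (red squares) and the 4 genes nearest to PTGS2 (circles), with lines joining the points of a gene. PTGS2 and its nearest genes are less reduced in clone 1 than in the other libraries, while PTGES lies between -2.63 and -2.24 in all 3.

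The wider pathway was read from 8 lists of genes, with 161 of their genes tested. The lists were written with earlier results of these data known, so their shares are not an independent comparison with all genes. None of the 161 passed after adjustment in the edgeR test, while 19 did in DESeq2's Wald test, against 4.86% of all tested genes. By the criterion 25 (15.5%) passed, 14 as lower and 11 as higher, against 9.58% of all tested genes. With upper quartile scaling the split was 12 lower and 15 higher, so neither direction led under every scaling. Upstream of the cyclooxygenases, 2 of 20 tested genes of arachidonate release met the criterion. PLA2G4C, a cytosolic phospholipase A2, had 5.29 CPM in the parental library and 0.553 to 1.87 in the clones (log2 fold change -2.22). PLA2G15, the lysosomal phospholipase A2, had 14.1 CPM against 23.9 to 37.9 (1.08). ACSL3, a long-chain acyl-CoA synthetase with the highest parental CPM of the list, was at 216 to 225 CPM in all 4 libraries. The list's median log2 fold change was 0.30.

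Among the enzymes that make or change other prostanoids, 2 of 10 met the criterion, both as higher, against 4.24% of all tested genes. The list's median was 0.63. CBR1, the carbonyl reductase that can turn PGE2 into PGF2alpha, had 49.2 CPM in the parental library and 94.3 to 114 in the clones (log2 fold change 1.09). Its relative CBR3 had 6.01 CPM against 12.9 to 22.7 (1.58). AKR1B1, an aldose reductase with PGF synthase activity, had the highest parental CPM of the list, 877, and 449 to 882 in the clones (-0.33), and did not pass.

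Of 8 tested genes of prostanoid transport and breakdown, SLCO2A1 and AKR1B10 met the criterion as higher, against 4.24% of all tested genes. The list's median was 0.20. SLCO2A1, the prostaglandin transporter that carries PGE2 into cells, had 0.398 CPM in the parental library and 3.99, 2.28 and 4.92 in the clones. All 3 clones were above the parental library (log2 fold change 3.22, standard error 0.65, adjusted p = 0.332 in edgeR's quasi-likelihood test). AKR1B10, an aldo-keto reductase, had 0.553 CPM against 1.64, 10.2 and 10.8 (3.77). SLCO4A1, with the highest parental CPM of the list, had 112.4 CPM against 15.5 to 64.0 (-1.56) and did not pass (unadjusted p = 0.0878 in the same test).

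Against 9.58% of all tested genes, none of 6 tested genes of other prostanoid receptors met the criterion (median -0.18). Those with the highest parental CPM were PTGFRN, a negative regulator of the PGF2alpha receptor, with 196.8 CPM against 326.9 to 476.3 (0.99), PTGFR, that receptor, with 57.1 against 20.8 to 59.2 (-0.61), and PPARG, a nuclear receptor, with 31.6 against 10.2 to 23.2 (-1.06). Of 47 tested genes of EP receptor signalling, 3 were lower and 3 higher by the criterion, against 5.34% and 4.24% of all tested genes. The list's median was -0.15. The lower ones were the adenylyl cyclase genes ADCY1 (2.71 CPM against 0.213 to 0.460, -2.87) and ADCY5 (0.642 against 0.122 to 0.223, -1.93) and the cAMP phosphodiesterase gene PDE4D (20.6 against 4.11 to 4.96, -2.22). The higher ones were GNAI2, an inhibitory G protein subunit (257 against 420 to 607, 1.04), the phosphodiesterase gene PDE7B (8.98 against 17.0 to 25.1, 1.16) and the receptor kinase gene GRK5 (7.52 against 13.7 to 21.3, 1.23).

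Of 21 tested targets of cAMP and CREB, 4 were lower by the criterion and none higher, against 5.34% and 4.24% of all tested genes. The list's median was -0.12. AREG, which encodes the EGFR ligand amphiregulin, had 13.3 CPM in the parental library and 0.785, 0.253 and 0.132 in the clones (log2 fold change -5.09). VEGFA, the angiogenic growth factor, had 1217 CPM against 205 to 262 (-2.35). PER2, a clock gene, had 24.9 against 6.36 to 9.84 (-1.67), and the other was PDE4D. DESeq2's Wald test called 2 other genes of the list, the AP-1 subunit genes FOS and FOSB, as higher.

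Of 39 tested genes that control PTGS2 transcription or its mRNA, 6 were lower and 1 was higher by the criterion. Among all tested genes these shares were 5.34% and 4.24%. The list's median was -0.10. The lower ones held the cytokine genes IL1A (25.2 CPM in the parental library against 0.112 to 0.968 in the clones) and IL1B (22.1 against 0.357 to 1.78), whose products are known inducers of COX2, and the receptor subunit gene IL1RAP (-1.08). They also held the transcription factor genes NFKB1 (167 against 61.0 to 78.9, -1.28), NFAT5 (-1.02) and CEBPB. CEBPB, which encodes C/EBP beta, had 662.5 CPM in the parental library and 137.3, 134.1 and 106.9 in the clones. Its log2 fold change was -2.39 (standard error 0.31, adjusted p = 0.259 in edgeR's quasi-likelihood test). JUN, a subunit of AP-1, was higher, with 107.8 CPM against 234.4 to 398.3 (1.57). No comparison here tested whether these genes acted on PTGS2 or PTGES.

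**Figure D5:**
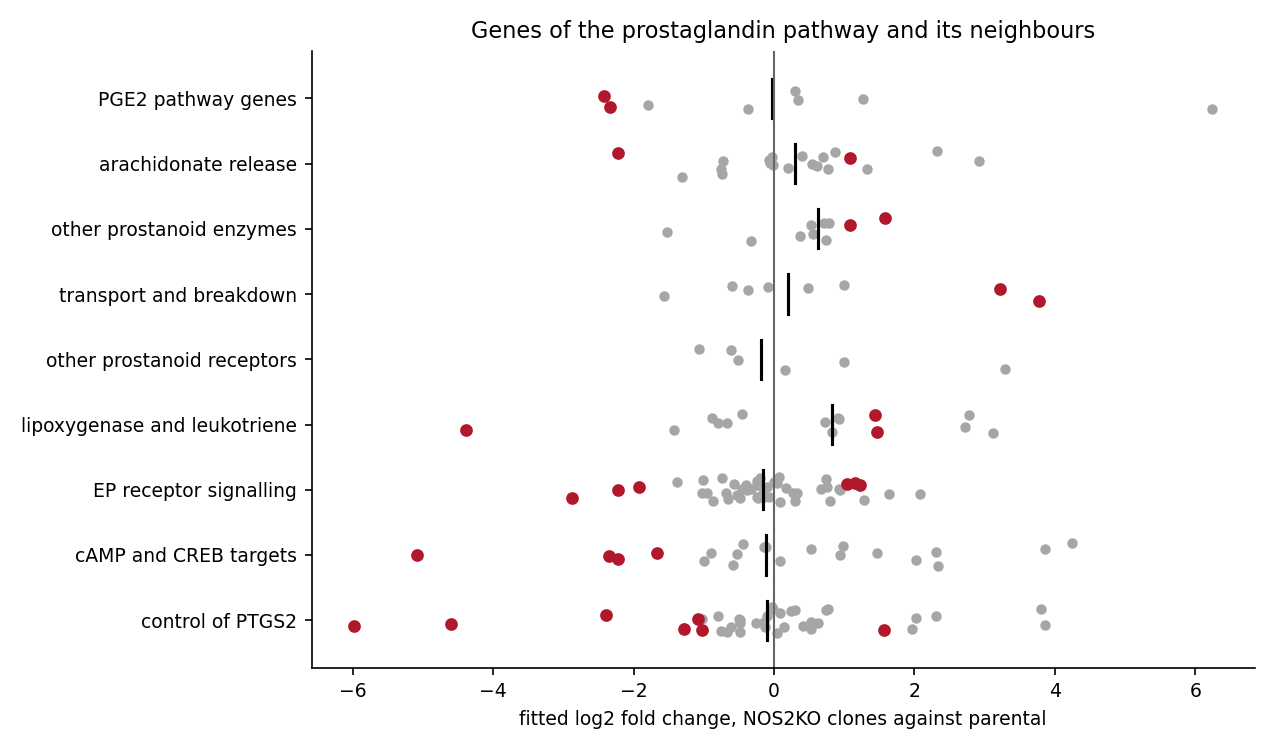
Fitted log2 fold change of the 3 NOS2KO clones against the parental library for each tested gene of the 10-gene pathway and of 8 related lists, with 1 point per gene. Red points met the criterion (unadjusted p below 0.05, log2 fold change beyond 1), grey points did not, and black bars are medians, which lie between -0.18 and 0.83.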

How the data were processed

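RNA from parental SUM159 cells and 3 NOS2KO SUM159 clones was enriched on oligo(dT) beads, prepared with the NEBNext Ultra II RNA kit and sequenced from both ends. What the authors deposited are raw read counts of each gene, not normalized. The submitters' processing notes name bcl2fastq 2.17, Trimmomatic 0.36, STAR 2.5.2b, featureCounts, Subread 1.5.2, DESeq2 and GRCh38, with no role or order. The strand setting is not given in the sources used here.

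Of 57500 Ensembl identifiers, 56898 had a symbol in the GENCODE release 29 annotation, and 54749 had the same coordinates there. The pathway genes and the gene lists were chosen with earlier results of these data known. The counts were fitted with edgeR 4.0.16 under R 4.3.3 (filterByExpr by group, TMM, estimateDisp, glmQLFit, glmQLFTest), and p-values of the 22511 genes kept were adjusted by the Benjamini-Hochberg method. The clones gave 2 residual degrees of freedom, to which the fit added 2.75. No covariate was used. Standard errors came from the information matrix of the fit. Log2 ratios of single libraries carry exact Clopper-Pearson 95% intervals from the counts. Where genes beyond a ratio in every clone were counted, a count of 0 was set to 3. Intervals and floors cover counting error only, and p-values measure the spread between these libraries.

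Named were all 10 pathway genes, NOS2, genes overlapping or beside them, the 5 genes nearest to PTGS2 (of which 4 are reported here), and from each list the genes that met the criterion, filled up to 3 with those of the highest parental level. Genes of the marker lists, PTGES3P1, LTA4H, TBXA2R, FOS and FOSB were named beside these after their values were seen. The alternatives were scaling by library size, RLE or upper quartile, a minimum of 1 CPM or no filter, DESeq2 1.42.0, robust estimation, a prior count of 2, a threshold of 0.58, each clone left out or alone, longest transcripts and TPM. Promoter windows came from RefSeq (GRCh38.p14), where 9 of the 10 pathway genes matched. Scripts were tested on simulated data. Intervals, lists and figures were made under Python 3.11.15 with pandas 2.3.3, scipy 1.17.1, matplotlib 3.10.9 and numpy 2.4.6.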

Additional observations from a re-analysis of the deposited data

How the results depend on the processing

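The counts of pathway genes by the criterion (2) and of list genes by it (25) stayed within 1.5 times under the other scalings, filters and tests. DESeq2's Wald test gave 2 pathway genes an adjusted p under 0.05, against 0 in edgeR's test. Leaving out a clone gave 1 to 3 pathway genes by the criterion (1 without the library labelled clone 5 or clone 6, 3 without clone 1) and 19 to 36 list genes. PTGS2 and PTGES differed by over 1 on the log2 scale in every clone, 2 genes, and a threshold of 0.58 gave 4. It added HPGD as higher and PTGER1 as lower, each through a ratio within counting error. These ratios were 0.66 (-0.65 to 2.09) for HPGD in clone 1 and -0.70 (-2.22 to 0.75) for PTGER1 in labelled clone 5. At the threshold of 1, leaving out a clone gave 2 to 4. HPGD and PTGER3 (whose parental count of 0 was set to 3) were added without clone 1. The exact 95% intervals of PTGER3 reached below 1, to 0.53 in labelled clone 5 and 0.65 in clone 6. The fitted log2 fold change of PTGS1 ran from -0.16 (without the library labelled clone 5) to 1.74 when a clone was left out, and clone 1 alone gave -0.85. Clone 6 alone gave -0.014 for PTGES3 and -0.23 for PTGER4. The negative ones among these, 4 of 110 values of single genes, were those that turned in sign. The order of levels in the parental library was the same with longest transcripts or TPM, and in clone 6 longest transcripts put HPGD (5.32) above PTGS1 (4.53). No paired analysis was possible because the labels give the groups no shared replicate numbers. With 1 parental library, the parental spread was assumed to equal that of the clones, and depth limited PTGER1, PTGER2 and PTGER3.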

Other observations

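Arachidonic acid also feeds the lipoxygenases, whose branch leads to leukotrienes. Of 15 tested genes of this branch, 1 was lower and 2 were higher by the same criterion, against 5.34% and 4.24% of all tested genes. The branch's median log2 fold change was 0.83, against 0.10 over all tested genes. CYSLTR2, a cysteinyl leukotriene receptor gene, had 3.50 CPM in parental cells against 0.183, 0.263 and 0.0507, a log2 fold change of -4.39. MGST2 and MGST3, microsomal glutathione transferases, were higher. MGST2 had 6.31 CPM in the parental library and 14.3 to 19.2 in the clones, and MGST3 had 25.9 against 59.8 to 77.8. Their log2 fold changes were 1.47 and 1.44. LTA4H, which makes leukotriene B4, had 59.2 CPM against 104.2 to 118.4, a log2 fold change of 0.91 that stayed under the threshold of 1. ALOX5, the first enzyme of the branch, had under 0.1 CPM in every library.

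TBXA2R, the thromboxane receptor gene, had 0.343 CPM in parental cells and 0.532, 5.51 and 4.06 in the libraries labelled clones 1, 5 and 6. Like HPGD, it was high in these last libraries only, and its log2 fold change of 3.29 had an adjusted p of 0.497 in edgeR's quasi-likelihood test.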
